A study of Mus musculus with 8 samples.

Results

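Immediate early response genes were examined in RNA-Seq libraries from a cell fraction of mouse distal lung that the authors describe as epithelial. The 10 genes were taken by symbol from the 22756 genes that each library lists. They were Fos, Fosb, Jun, Junb, Egr1, Ier2, Atf3, Dusp1, Nr4a1 and Zfp36. There were 8 libraries in 4 groups, α7G control, α7G CS, α7E260A:G control and α7E260A:G CS, with 1 male and 1 female library in each group. Both mouse lines carry an IRES-tauGFP reporter in the Chrna7 gene (Chrna7-IRES-tauGFP), which encodes the nicotinic α7 receptor, and the α7E260A:G line also carries the E260A substitution (Chrna7-E260A-IRES-tauGFP), made in the α7G line to restrict the calcium current of the receptor. CS was side-stream cigarette smoke on 5 days per week for 4 months, and control mice breathed room air. The paper states that mice were used the day after their last exposure, so levels in the minutes after smoke were not measured. The mice were adults of a mostly C57BL/6 background. Lavage fluid was removed, the tissue was dissociated with enzymes and the cells that carry CD45, a leukocyte marker, were depleted before RNA was made. How many mice went into a library is not stated in the sources used here, so p-values measure only the spread between these libraries.

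Immediate early genes are transcribed within minutes of a stimulus, without new protein synthesis, when kinases such as ERK and p38 or a rise in calcium activate factors that already sit at their promoters, among them SRF and CREB. Many encode transcription factors, including the Fos and Jun proteins that pair as AP-1, and others encode inhibitors that shut the signal off again. Their mRNAs decay fast, and in the lung they are known to respond to smoke, stretch, growth factors and inflammatory signals, and also to the handling of tissue.

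The libraries held 8020726 to 10944100 CDS counts each (reads counted on coding sequence). Levels are given as RPM, the counts of a gene per 1000000 counts of its library, so that 3 counts, taken as the floor, equal 0.274 to 0.374 RPM. The mutated gene Chrna7 had 4 counts in the male α7E260A:G control library and 0 in the other 7, so it gives no check of the labels. Epithelial markers (Epcam, Sftpc, Scgb1a1 and 6 others) were present in every library, at a summed 46324 to 82704 RPM in 6 of them but at 26623 and 15007 RPM in the male α7E260A:G control and CS libraries. Macrophage markers were present too, at 19701 to 28004 RPM in the 4 α7G and 34700 to 58763 RPM in the 4 α7E260A:G libraries. Their sum was above that of the epithelial markers in each α7E260A:G library and below it in each α7G library. Ptprc, which encodes CD45, reached 771 to 1935 RPM and was above Epcam, at 78.5 to 212 RPM, in every library. Lymphocyte markers summed to 1121 to 2428 RPM, endothelial markers to 308 to 830 RPM and fibroblast and smooth muscle markers to 732 to 2887 RPM. The libraries also differed in how levels depended on CDS length, with slopes of -0.24 to 0.41 log2 units per doubling. In bulk libraries such as these, fewer cells of a type and less RNA per cell cannot be told apart.

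A promoter sequence was found for 8 of the 10 genes in a RefSeq table of mouse promoters (build GRCm38.p6), all but Egr1 and Ier2. The sequences below are the 150 bases just before the RefSeq start of 5 genes whose levels are described next, printed 5′ to 3′ on the strand of the gene, with the last base at position -1. Capitals mark TGACG, the core of the cAMP response element (CRE) that CREB and related factors bind, read on either strand. They are shown because this core recurs among the members.
Fos: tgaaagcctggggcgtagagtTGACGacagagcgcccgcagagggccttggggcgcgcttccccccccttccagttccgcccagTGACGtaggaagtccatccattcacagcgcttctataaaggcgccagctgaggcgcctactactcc
Fosb: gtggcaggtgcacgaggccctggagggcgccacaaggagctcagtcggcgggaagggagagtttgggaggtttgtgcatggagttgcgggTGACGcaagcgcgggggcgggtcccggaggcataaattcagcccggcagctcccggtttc
Junb: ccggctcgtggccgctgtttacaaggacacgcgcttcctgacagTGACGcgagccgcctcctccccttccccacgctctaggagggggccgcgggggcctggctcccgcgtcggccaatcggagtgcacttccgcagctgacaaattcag
Nr4a1: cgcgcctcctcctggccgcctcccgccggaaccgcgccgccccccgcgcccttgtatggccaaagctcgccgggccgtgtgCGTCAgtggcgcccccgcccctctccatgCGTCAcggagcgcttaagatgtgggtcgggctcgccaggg
Dusp1: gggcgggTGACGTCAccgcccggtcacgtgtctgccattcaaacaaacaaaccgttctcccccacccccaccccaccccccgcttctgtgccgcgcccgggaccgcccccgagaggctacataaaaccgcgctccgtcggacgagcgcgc
These stretches lie on chromosome 12 for Fos (chr12:85473740-85473889, plus strand), on chromosome 7 for Fosb (chr7:19310046-19310195, minus strand), on chromosome 8 for Junb (chr8:84978749-84978898, minus strand), on chromosome 15 for Nr4a1 (chr15:101266696-101266845, plus strand) and on chromosome 17 for Dusp1 (chr17:26508473-26508622, minus strand). The core TGACG was present on either strand within 250 bases before the start in 6 of the 8 genes (Fos, Fosb, Junb, Atf3, Dusp1 and Nr4a1), and in 17.8% of all 32851 promoters of the table. Fos held it at -129 to -125 and at -66 to -62, and Nr4a1 held it 4 times, the nearest at -40 to -36. Dusp1 held the whole palindrome TGACGTCA at -143 to -136, as did 1.55% of all promoters, and this site contains the core on both strands. The AP-1 site TGACTCA was in none of the 8 (4.46% of all promoters), nor was the EGR site GCGTGGGCG (0.536%). A CArG box, the site of SRF, was found in Zfp36 alone (1.47% of all), at -58 to -49, and the TATA box letters TATAAA in Fos alone (7.59%). These matches describe letters in a short window, and binding was not measured.

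Compared per kilobase of coding sequence (RPKM, the RPM divided by CDS length in kilobases), the members spanned a wide range of levels. Junb averaged 380 ± 156 RPKM (SD, n = 8 libraries), Fos 339 ± 167, Zfp36 322 ± 116, Dusp1 221 ± 71.8 and Ier2 198 ± 58.7. Nr4a1 averaged 72.3 ± 30.3 RPKM, Jun 64.9 ± 20.6, Egr1 59.7 ± 32.2, Atf3 25.4 ± 10.7 and Fosb 15.0 ± 12.7. Of neighbours in this order, Ier2 and Nr4a1 were further apart than either SD, as were Egr1 and Atf3, and the other 7 steps were smaller than the larger SD of the pair. Of the 10 genes, 8 passed the filter on low values, a mean of at least 200 counts over the libraries. Atf3 (mean 119 counts) and Fosb (131 counts) did not, and their tests come from a fit of 14140 genes kept by a milder filter.

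Among the AP-1 genes, Fos lies on chromosome 12 (86814840 to 86818223, plus strand, build mm9) and encodes c-Fos, which binds DNA as a partner of the Jun proteins. In males Fos was at 821 RPM in the α7G control, 332 RPM in the α7G CS, 413 RPM in the α7E260A:G control and 335 RPM in the α7E260A:G CS library. In females it was at 245, 437, 224 and 288 RPM in the same order. The male α7G control library stood far above the other 7, the highest of which held 437 RPM, while the female library of the same group was among the lowest. Fosb, its close relative on chromosome 7 (19888070 to 19895394, minus strand, mm9), showed the same library as highest: the male libraries, in the order above, held 45.9, 8.03, 13.4 and 16.96 RPM and the female libraries 12.9, 11.1, 5.76 and 7.85 RPM. Apart from the male α7G control, the 7 other libraries stayed between 5.76 and 16.96 RPM.

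Jun, on chromosome 4, encodes c-Jun, the partner of Fos that can also pair with itself. It was at 90.9, 73.1, 69.1 and 64.8 RPM in the male and at 57.0, 89.6, 31.7 and 43.8 RPM in the female libraries, again in the order α7G control, α7G CS, α7E260A:G control and α7E260A:G CS. Junb, on chromosome 8 (87500811 to 87502617, minus strand, mm9), encodes a Jun protein with weaker transactivation that restrains c-Jun in many settings. Its male libraries held 614, 615, 307 and 334 RPM and its female libraries 297, 504, 218 and 253 RPM. In both genes the α7G CS libraries lay above all 4 α7E260A:G libraries, and the same held for Ier2. These 3 of the 10 members compare with 14.5% of the 7200 genes tested, and with the trend on CDS length removed only Junb met this. Atf3, on chromosome 1, is a stress-induced repressor of the ATF/CREB family. It was at 19.97, 13.4, 22.3 and 16.2 RPM in males and at 5.76, 12.6, 6.49 and 13.6 RPM in females. Its control libraries were the 2 highest in males and the 2 lowest in females, and the 4 CS libraries lay between them.

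**Figure D1:**
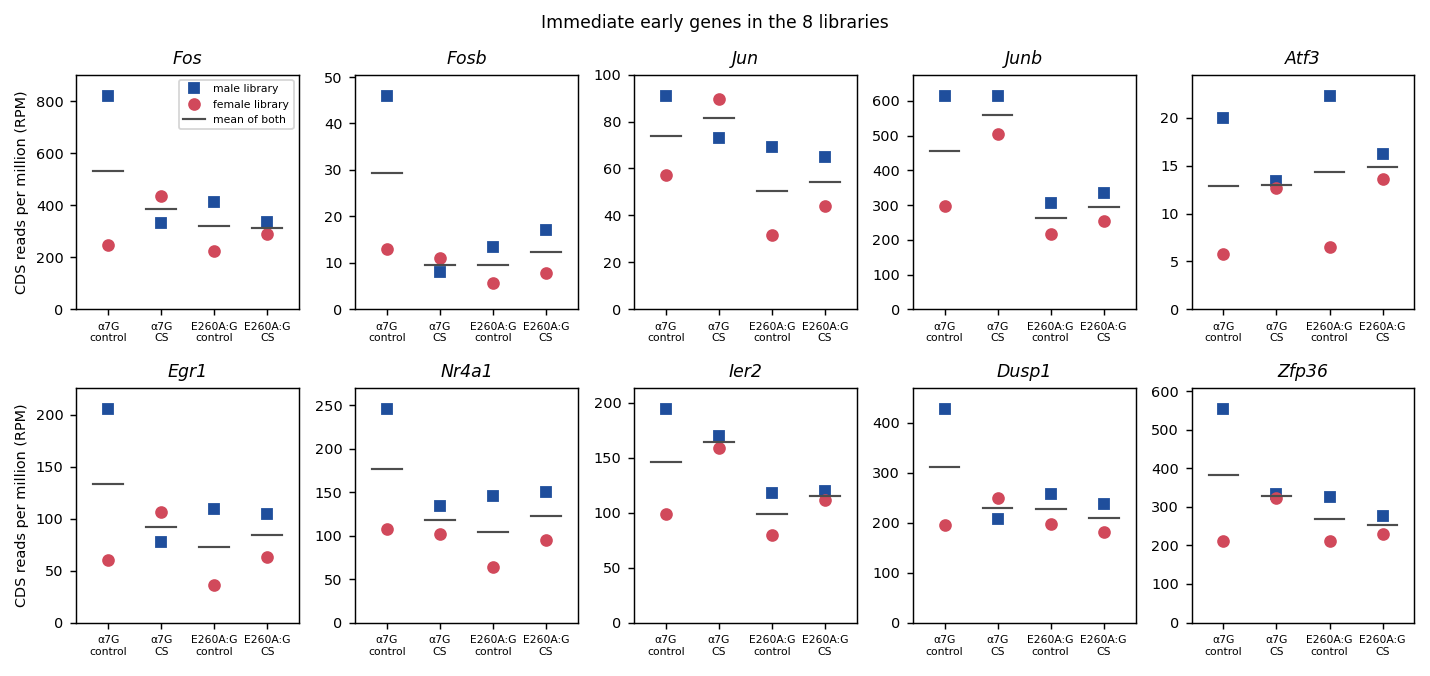
RPM of each of the 10 genes (vertical axis, from 0) in the 4 groups, with squares for male libraries, circles for female libraries and a bar at the mean of both. The male α7G control library is the highest of 8 for every gene but Junb and Atf3, for example at 821 RPM for Fos and 45.9 RPM for Fosb.

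Egr1, on chromosome 18, encodes a zinc finger factor induced through SRF. Its male libraries held 205, 77.6, 109 and 104 RPM and its female libraries 60.5, 107, 36.2 and 63.5 RPM. Nr4a1, on chromosome 15 (101097277 to 101105223, plus strand, mm9), encodes the orphan nuclear receptor Nur77, known to respond strongly to calcium and cAMP. It was at 246, 134, 145 and 150 RPM in males and at 107, 102, 63.9 and 94.9 RPM in females, so that every male library lay above every female library. Nr4a1 was the only member whose sexes did not overlap in this direction, as was the case for 4.81% of genes tested. Ier2, on chromosome 8, encodes a small nuclear protein. It was at 194, 169, 118 and 120 RPM in males and at 98.8, 159, 79.8 and 111 RPM in females.

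The remaining genes encode inhibitors. Dusp1, on chromosome 17 (26642535 to 26645464, minus strand, mm9), encodes a phosphatase that inactivates the p38, JNK and ERK kinases. Its male libraries held 427, 208, 257 and 237 RPM and its female libraries 195, 250.1, 196 and 181 RPM. Outside the male α7G control library it therefore spanned only 181 to 257 RPM. Zfp36, on chromosome 7, encodes tristetraprolin, which speeds the decay of mRNAs such as that of Tnf. It was at 553, 334, 324 and 277 RPM in males and at 211, 323, 212 and 230 RPM in females.

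The male α7G control library held the highest level of 8 of the 10 members (Fos, Fosb, Jun, Egr1, Ier2, Dusp1, Nr4a1 and Zfp36), and of 16% of genes tested. Summed over the 10 genes it held 3216 RPM, against 1073 to 1995 RPM in the other 7 libraries. At the other end, the female α7E260A:G control library was lowest for 7 members (Fos, Fosb, Jun, Junb, Egr1, Ier2 and Nr4a1), and for 34.8% of genes tested. These shares depended on the scaling: with TMM scaling the male α7G control library was highest for 7 members and 10.3% of genes and the female α7E260A:G control library lowest for 5 members and 15.5%, and with the trend on CDS length removed these were 9 members and 10.6%, and 6 members and 11.5%. The 2 libraries of the α7G control group were thus far apart, at 3216 and 1291 RPM, and those of the α7G CS group close together, at 1964 and 1995 RPM. The main comparisons below are therefore also given without the male α7G control library. That leaves only a female library in its group, and the CS and genotype fits had no term for sex.

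The comparison of the genotypes over both exposures addresses whether levels differ between the mouse lines, whose libraries also differed in cell type markers. No member passed an adjusted p of 0.05 by edgeR's quasi-likelihood test, where 6 of 7200 genes (0.0833%) did; 1 of the 8 members tested, Junb, had an unadjusted p under 0.05, as did 11.9% of genes tested. DESeq2 called 422 of the 7200 genes and 1 member, also Junb. Junb was 1.75-fold lower in α7E260A:G (log2 fold change -0.81 ± 0.23 SE, edgeR adjusted p = 0.198, DESeq2 adjusted p = 0.0310). Blocking on sex gave an edgeR adjusted p of 0.0935, and the block together with an offset for CDS length gave 0.0166. It averaged 278 ± 52.4 RPM in the 4 α7E260A:G and 507 ± 149 RPM in the 4 α7G libraries. The ranges overlapped, at 218 to 334 and 297 to 615 RPM, since the female α7G control library lay inside the α7E260A:G range. Its log2 difference was -0.53 ± 0.18 without the male α7G control library. All 8 members tested had a lower estimate in α7E260A:G, with a median log2 fold change of -0.48, while 43.9% of all genes tested had a lower estimate and their median was 0.04. For Jun, Egr1, Fos and Ier2 the estimates were between -0.54 and -0.48, and for Dusp1, Nr4a1 and Zfp36 between -0.39 and -0.24. Fosb had -0.58 ± 0.43 and Atf3 0.23 ± 0.43 in the wider fit.

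Much of this lower estimate depended on a single library, the male α7G control. The fit without it had no term for sex and kept only a female library in that group, so sex and genotype were not balanced in it. Over the 10 members, the matched pairs left had median log2 ratios of -0.38 in control females, 0.08 in CS males and -0.50 in CS females. Over genes tested these were -0.33, 0.16 and -0.03. Without the male α7G control library, the estimates of 5 of the 8 members were above 0, at 0.01 to 0.07 (Fos, Egr1, Dusp1, Nr4a1 and Zfp36), and the median over the 8 was 0.01. Jun, Junb and Ier2 remained lower in α7E260A:G, by estimates of -0.38, -0.53 and -0.22. These were also the 3 members that were lower in α7E260A:G in all 4 pairs matched for sex and exposure, as were 15% of genes tested. Atf3 was higher in α7E260A:G in all 4 pairs, by 0.11 to 0.28 on the log2 scale, as were 7.83%. No member was lower in every α7E260A:G library than in every α7G library, as were 5.14% of genes tested. Markers of other cells moved with genotype too: all 10 macrophage markers had a higher estimate in α7E260A:G, with a median log2 fold change of 0.90, 1 of them called by edgeR and 7 by DESeq2, and 8 of 9 epithelial markers had a lower one, with a median of -0.71 and 0 called by edgeR, 2 by DESeq2 and 4 at an unadjusted p under 0.05. Lymphocyte markers were lower in 8 of 9, with a median of -0.35, and endothelial markers in 6 of 7, with a median of -0.50. Of these edgeR called none, and DESeq2 called 3 lymphocyte and 2 endothelial markers. Neutrophil markers were higher in 5 of 7 (median 0.21) and fibroblast and smooth muscle markers in 4 of 5 tested (0.69), none called by either tool. The part of these cells in the members' levels was not tested.

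**Figure D2:**
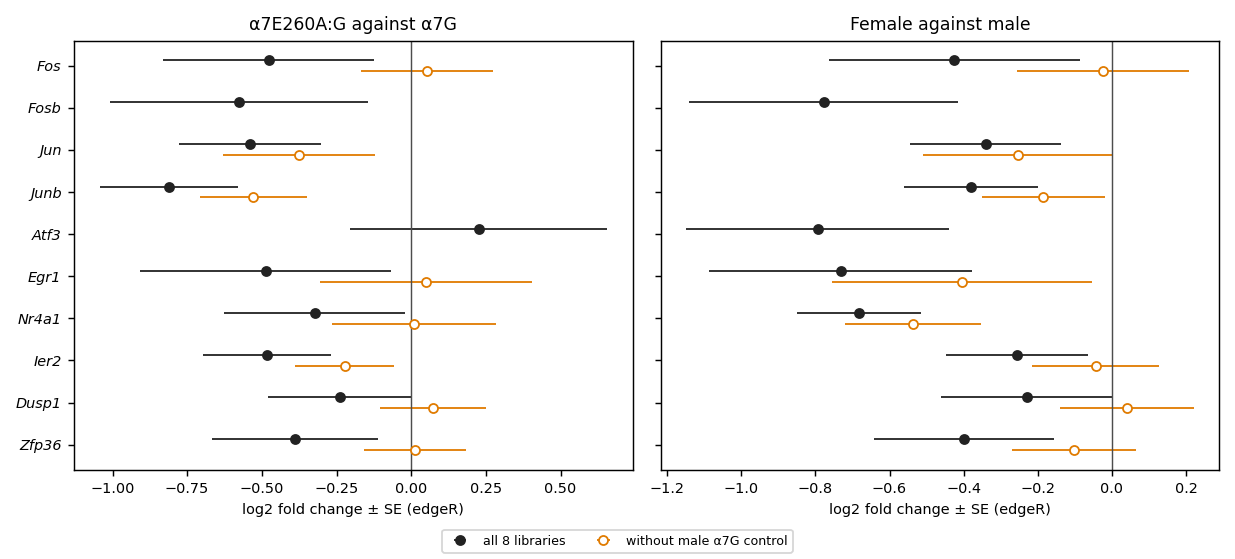
Log2 fold change with its SE (horizontal axis) for each member, for α7E260A:G against α7G on the left and female against male on the right, with filled points for all 8 libraries and open points without the male α7G control library. Junb stands furthest left for genotype, at -0.81 and -0.53, while Fos goes from -0.48 to 0.05. The open points on the left come from a fit with only a female α7G control library and no term for sex. Fosb and Atf3 have no open point, since they did not pass the filter.

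For the response to CS, each genotype was compared on its own. In α7G mice, no member passed an adjusted p of 0.05 by edgeR, as was the case for 0% of genes tested. None of the 8 members tested had an unadjusted p under 0.05, beside 6.75% of genes tested, and DESeq2 called none of them and 28 other genes. A fit of that genotype's 4 libraries alone called 1154 of the 7200 genes and none of the members. Fosb had the lowest estimate, 2.76-fold lower after CS in the wider fit (log2 fold change -1.46 ± 0.62 SE, edgeR adjusted p = 0.645). The pairs behind it were 45.9 and 8.03 RPM in males and 12.9 and 11.1 RPM in females, so the male pair carried the difference. Nr4a1 had -0.44 ± 0.43, Egr1 -0.38 ± 0.59, Fos -0.33 ± 0.50 and Dusp1 -0.31 ± 0.34, while Junb had 0.43 ± 0.33, Ier2 0.30 ± 0.30 and Jun 0.27 ± 0.33. In 5 of the 8 members tested the estimate was below 0, with a median of -0.19 against -0.02 over all genes tested.

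Without the male α7G control library the α7G estimates ran the other way. The fit then sets 2 CS libraries, male and female, against the female control library alone, which is assumed to vary like the other groups. With no term for sex, sex and CS were not balanced in it. In the female pair alone, 8 of the 10 members were higher after CS and 2 lower, Fosb and Nr4a1. The median log2 ratio of that pair was 0.67, against -0.09 over genes tested. All 8 members had an estimate above 0, with a median of 0.71 against 0.00 over all genes tested, and none passed (smallest edgeR adjusted p = 0.984). Junb had 1.00 ± 0.29, Ier2 0.82 ± 0.27, Fos 0.73 ± 0.35 and Zfp36 0.72 ± 0.27.

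In α7E260A:G mice, too, no member passed by edgeR, where 0% of genes tested did, and none had an unadjusted p under 0.05, beside 1.71% of genes tested. DESeq2 called no member and 11 other genes. The estimates were small: Fosb 0.33 ± 0.61 in the wider fit, Dusp1 -0.20 ± 0.34, Egr1 0.18 ± 0.60, Nr4a1 0.18 ± 0.43, Ier2 0.16 ± 0.30 and Zfp36 -0.14 ± 0.39, with Junb, Fos and Jun within 0.09 of 0. The median over the 8 members was 0.08, and -0.04 over all genes tested. Over both genotypes together no member passed either by edgeR (0% of genes tested) or by DESeq2, which called 39 other genes, and none had an unadjusted p under 0.05, beside 7.60% of genes tested. In 5 of the 8 the estimate was below 0, with a median of -0.11. Without the male α7G control library, in a fit with no term for sex, all 8 were above 0, with a median of 0.33 against 0.00 over all genes tested. Junb was the 1 member that was higher after CS in all 4 matched pairs, by 0.0028 to 0.76 on the log2 scale, as were 13.1% of genes tested, but not with the trend on CDS length removed. No member was higher in every CS than in every control library (1.67% of genes tested), and none was lower (0.417%).

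Whether the genotypes differed in their response to CS was tested directly as the difference of both contrasts. No member passed by edgeR, where 0% of genes tested did. None of the 8 had an unadjusted p under 0.05, beside 1.46% of genes tested, and DESeq2 called no member and 3 other genes. Fosb had the largest difference, 1.80 ± 0.87 (edgeR adjusted p = 1.00 in the wider fit), followed by Nr4a1 at 0.63 ± 0.61. These were the 2 members that were lower after CS in both α7G pairs and higher in both α7E260A:G pairs, as were 11.6% of genes tested. For Nr4a1 the steps were -0.87 and -0.07 in α7G and 0.04 and 0.57 in α7E260A:G on the log2 scale (male first), so that only 1 pair of each genotype moved far, and the difference was -0.04 ± 0.55 without the male α7G control library. Without that library all 8 members had a difference below 0, with a median of -0.59 against -0.01 over genes tested. All 8 then share the same female library as the only α7G control, in a fit with no term for sex.

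The libraries of a group differed by sex, and so the matched pairs were also read by sex. In the α7G control, α7E260A:G control and α7E260A:G CS groups all 10 members were lower in the female than in the male library, with median log2 ratios of -1.29, -1.003 and -0.40, against -0.07, -0.39 and -0.23 over genes tested. In the α7G CS group 5 were lower and 5 higher, with a median of 0.11. No member passed by edgeR for female against male, where 2 of 7200 genes (0.0278%) did, and 1 of the 8 members, Nr4a1, had an unadjusted p under 0.05, beside 21.9% of genes tested. DESeq2 called none of the members and 51 other genes. Nr4a1 was 1.60-fold lower in females (log2 fold change -0.68 ± 0.17 SE, edgeR adjusted p = 0.228), at 92.0 ± 19.5 RPM in 4 female and 169 ± 51.7 RPM in 4 male libraries. It kept -0.54 ± 0.18 without the male α7G control library, while the median over the 8 members went from -0.39 to -0.14. Egr1 had -0.73 ± 0.35, Fosb -0.78 ± 0.36 and Atf3 -0.79 ± 0.35, and the other 6 were between -0.43 and -0.23. The members lower in females in all 4 pairs were Junb, Ier2, Atf3, Nr4a1 and Zfp36, 5 of 10, beside 24.8% of genes tested. With TMM scaling they numbered 4, beside 15.4%, and with the trend on CDS length removed 5, beside 9.5%. Markers of other cells moved with sex as well, though edgeR called none of them and DESeq2 called 2 epithelial and 1 macrophage marker. All 7 endothelial markers had a lower estimate in females, with a median log2 fold change of -0.43, among them Kdr at -0.76, Tek at -0.77 and Cdh5 at -0.74. Of the 9 epithelial markers 7 were higher and 2 lower in females, with a median of 0.41. Among them Sftpc had 1.23 ± 0.35 and Scgb1a1 1.02 ± 0.34. Of the 9 lymphocyte markers 8 were higher in females, with a median of 0.52. Of the 10 macrophage markers 5 were higher and 5 lower in females, with a median of 0.10, and 6 had an unadjusted p under 0.05 by edgeR. Neutrophil markers were lower in females in 4 of 7, with a median of -0.51 and 0 at an unadjusted p under 0.05 by edgeR. Fibroblast and smooth muscle markers were lower in 4 of 5 tested, with a median of -0.71 and 2 at an unadjusted p under 0.05 by edgeR. The part of these cells in the difference by sex was not tested.

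The step from control to CS took opposite signs in males and females for several members. Fos, Jun, Egr1, Atf3 and Zfp36 were lower after CS in both male pairs and higher in both female pairs, 5 of 10 members (4 of the 8 tested), beside 5.74% of genes tested. Zfp36 did not meet this with TMM scaling (4 members, beside 5.26%), nor with the trend on CDS length removed, where Ier2 did (5 members, beside 4.46%). For Fos the CS to control ratio was 0.405 and 0.810 in α7G and α7E260A:G males and 1.78 and 1.28 in α7G and α7E260A:G females. For Egr1 the same ratios were 0.378 and 0.956 in males and 1.77 and 1.75 in females. For Atf3 they were 0.670 and 0.727 in males and 2.19 and 2.10 in females. No member passed the test of this difference by edgeR (0% of genes tested) or by DESeq2. By edgeR 2 of the 8 members tested had an unadjusted p under 0.05, beside 1.65% of genes tested. That number was 0 without the male α7G control or the female α7G CS library, 1 without the male α7G CS library, and 5 without the female α7E260A:G control library or with an offset for CDS length. The difference, female minus male, was 1.30 ± 0.43 for Fos and 1.43 ± 0.43 for Egr1 (edgeR adjusted p = 0.974 for both), and 1.53 ± 0.40 for Atf3 in the wider fit (edgeR adjusted p = 0.995). It was 0.89 ± 0.44 for Fos and 1.13 ± 0.49 for Egr1 without the male α7G control library. The neutrophil marker Mmp9 went from 289 to 76.1 RPM and from 113 to 90.4 RPM in the α7G and α7E260A:G male pairs, and from 42.0 to 75.4 RPM and from 68.2 to 73.6 RPM in the female pairs. Cxcr2 took the same signs in each pair, but the other neutrophil markers did not. In the α7E260A:G female pair S100a8 fell from 1193 to 690 RPM, S100a9 from 1567 to 1190, Csf3r from 128 to 113 and Il1b from 200 to 180. In the α7E260A:G male pair Retnlg rose from 55.6 to 110 RPM. Of the 7 neutrophil markers 6 had a difference above 0, with a median of 1.04, and none passed. Their part in the members' difference was not tested. This comparison was added after the pairs had been seen.

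**Figure D3:**
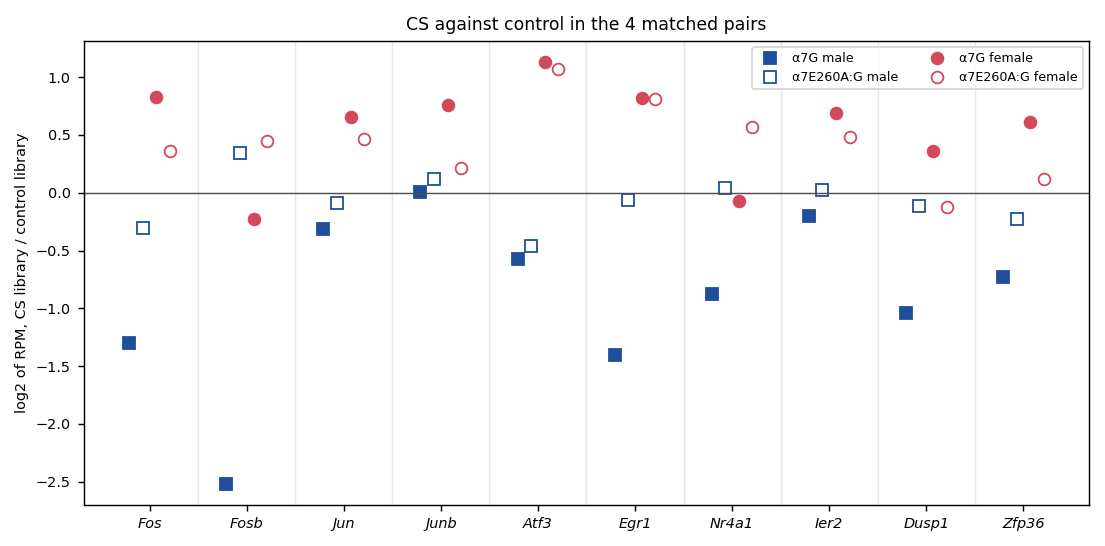
Log2 of the CS to control ratio of RPM (vertical axis) for each member in the 4 matched pairs, with blue squares for male and red circles for female pairs, filled for α7G and open for α7E260A:G. Female pairs lie above 0 and male pairs below it for Fos, Jun, Atf3, Egr1 and Zfp36, and the α7G male pair of Fosb is the lowest point, at -2.52.

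The members varied together over the libraries. Over the 45 pairs of members, Pearson's r of log2(RPM + 0.5) across 8 libraries was 0.455 to 0.967 with a median of 0.797, and the highest was that of Fos and Zfp36. Without the male α7G control library it was 0.180 to 0.946 with a median of 0.720, and the lowest was that of Fosb and Junb. The libraries share groups, depth and cell content, so these values describe the 8 libraries. The 10 tested genes outside the members whose log2 level followed the members' mean standardised level most closely were Mettl3 (r = 0.982), Csrnp1 (0.9501), Taz (0.947), Btg2 (0.939), Was (0.939), Mtmr14 (0.935), Ppp1r15a (0.932), Hsdl1 (0.931), Plekha2 (0.926) and Itprip (0.925), over 8 libraries. Csrnp1, Btg2 and Ppp1r15a belong to the wider lists of immediate early genes described next. Csrnp1 was at 95.4 RPM in the male α7G control library and at 30.4 to 56.2 RPM in the other 7. Mettl3, which encodes an RNA methyltransferase, spanned a narrower 39.6 to 62.9 RPM. With that library left out, Mettl3 was the only one of the 10 that was still among the 10 closest (r = 0.968, n = 7). Leaving that library out of these correlations was chosen after seeing the data.

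Other genes of the response were read from lists. Over all 7200 genes tested, the share with an unadjusted p under 0.05 was 11.9% for genotype, 6.75% for CS in α7G and 1.71% for CS in α7E260A:G, and the share with a lower estimate was 43.9%, 51.7% and 55.8%. The first held AP-1 and other immediate early transcription factors, 19 of 20 found in the files and 12 tested. In the genotype comparison edgeR called none of the 12 and DESeq2 called 2, 7 were higher and 5 lower in α7E260A:G, and their median log2 fold change was 0.19. Of the 12, 3 had an unadjusted p under 0.05. Klf2, a factor induced by flow and statins, had -0.80 ± 0.16 and Jund, the most constant Jun gene, -0.63 ± 0.16 (edgeR adjusted p = 0.112 and 0.170), while Egr2 had 0.63 ± 0.27. After CS, 8 of the 12 were higher in α7G and 2 of the 12 in α7E260A:G, with none called by either tool and 1 and 0 at an unadjusted p under 0.05. In α7G Jund had 0.58 ± 0.23 and Fosl2 -0.60 ± 0.53.

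The second list held feedback inhibitors and other immediate early effectors, 29 found and 22 tested. In the genotype comparison edgeR called none and DESeq2 2, with 5 at an unadjusted p under 0.05, and 16 were lower and 6 higher in α7E260A:G, with a median of -0.13. Errfi1, an inhibitor of the EGF receptor, had -0.83 ± 0.24, the kinase gene Plk2 -0.72 ± 0.19 and Gadd45b, a stress gene, -0.68 ± 0.23, while its relative Gadd45g had 0.78 ± 0.25 (edgeR adjusted p = 0.165 to 0.294 for the 4). After CS in α7G, 10 were higher and 12 lower, none was called by either tool, and 4 had an unadjusted p under 0.05. Dusp16, a phosphatase of JNK, had -0.99 ± 0.24, while Cyr61 and Ctgf, targets of YAP and SRF, had 1.21 ± 0.59 and 0.97 ± 0.38, and Ier3 0.94 ± 0.28 (edgeR adjusted p = 0.589 for each). After CS in α7E260A:G, 9 were higher and 13 lower, and none was called by either tool or had an unadjusted p under 0.05.

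The third list held the kinases and factors upstream, 19 found and 13 tested, of which neither tool called any for CS or genotype (1 at an unadjusted p under 0.05 for CS in each genotype and 0 for genotype). After CS in α7G, 10 of the 13 were lower, with a median of -0.20, among them Creb1 at -0.72 ± 0.31 and Rps6ka3, an RSK kinase that phosphorylates CREB, at -0.66 ± 0.28. Between the genotypes Mapk3, which encodes ERK1, had 0.33 ± 0.16, Mapk14, which encodes p38α, 0.32 ± 0.20, Rps6ka3 0.31 ± 0.20 and Srf -0.24 ± 0.21. After CS in α7E260A:G Mapk3 had 0.60 ± 0.23 (edgeR adjusted p = 1.00).

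The library that was highest for most members also differed in markers of other cells. The summed level of the 7 neutrophil markers was 3387 RPM in the male α7G control library, 1018 RPM in the female α7G control library, 2018 and 2157 RPM after CS in α7G, 1399 and 3362 RPM in α7E260A:G controls and 1280 and 2505 RPM after CS in α7E260A:G (male first). In the male α7G control library Il1b was at 561 RPM, Csf3r at 374 RPM and Mmp9 at 289 RPM, each the highest of 8. Ptprc was highest there as well, at 1935 RPM, but the macrophage list to which it belongs had its lowest sum there, at 19701 RPM. Of the neutrophil markers, S100a8 and S100a9 were highest instead in the female α7E260A:G control library, at 1193 and 1567 RPM, where 7 of the 10 members were lowest. None of the 7 markers was at 0 in every library. Heat shock genes often induced by tissue dissociation summed to 1424 RPM in the male α7G control library and to 1315 to 2370 RPM in the others, and of the 7 tested neither tool called any, nor had any an unadjusted p under 0.05, for CS, genotype or sex. The part of these cells or of handling in the members' levels was not tested.

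**Figure D4:**
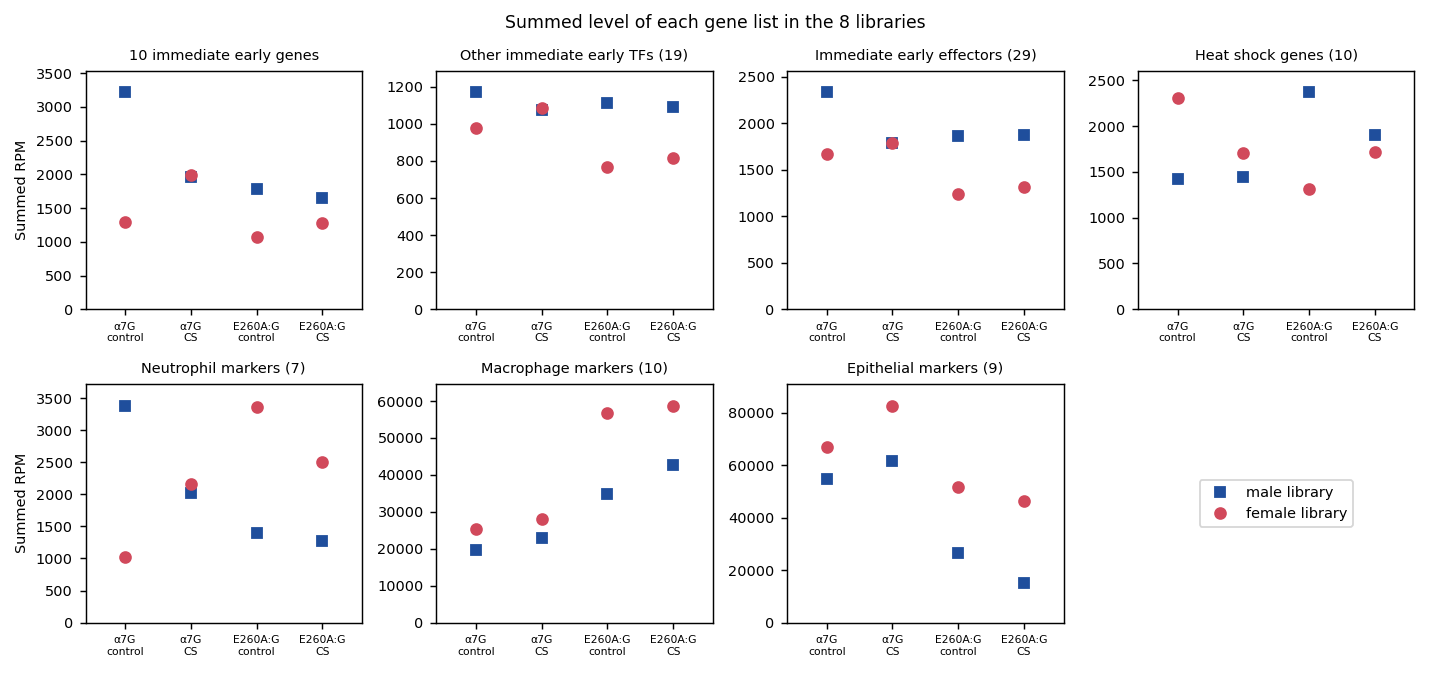
Summed RPM (vertical axis, from 0) of the 10 members, of 3 other gene lists and of 3 marker lists in the 4 groups, with squares for male and circles for female libraries. The male α7G control library is highest for the members, at 3216 RPM, for the effectors, at 2330 RPM, and for the neutrophil markers, at 3387 RPM, but not for the heat shock genes, at 1424 RPM.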

How the data were processed

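RNA-Seq was made from 8 stranded poly(A) libraries. The authors aligned reads with STAR to mm9 (NCBIM37), counted reads on coding sequence with htseq-count and GENCODE release M1, and deposited raw counts, without normalization, for 22756 genes per library. RPM and RPKM were computed from these counts. The 95% Wilson intervals of the levels are at most 38.9 RPM wide and, like the floor of 3 counts, cover counting error only.

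Genes with a mean of at least 200 counts were kept, without immunoglobulin, histocompatibility, Gm and ribosome subunit genes (7200 genes). Counts were tested with edgeR 4.0.16 (glmQLFit and glmQLFTest, TMM, Benjamini-Hochberg) in R 4.3.3 with limma 3.58.1, in a model of 4 groups. Sex was added for female against male, and sex by CS for the added comparison. Matched pairs are libraries of the same sex label, used as a description. The common dispersion was 0.0767. SEs came from the log2 fold change and F statistic. Fosb and Atf3 were tested among 14140 genes kept by filterByExpr. Alternatives were DESeq2 1.42.0, library size scaling, filterByExpr, no filter, an offset for CDS length, sex as a replicate block, both, the 4 libraries of a genotype alone, and leaving out each library. The tests were checked on simulated counts. Python 3.11.15, numpy 2.4.6, pandas 2.3.3, scipy 1.17.1 and matplotlib 3.10.9 were used. Coordinates of genes are mm9, and promoters are from RefSeq GRCm38.p6.

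The genes named are the 10 members, Chrna7, at most 4 genes of each list per comparison by size of log2 fold change, the markers, and the 10 genes most like the members. Members and lists were chosen with earlier results of these data known.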

Additional observations from a re-analysis of the deposited data

Results flagged for a closer look

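A library far from the other 3 of its kind was found 4 times in 60 sets of 4 libraries examined (10 genes in each genotype, exposure and sex), where chance flags about 1 set in 20. The gap to the nearest library, as a share of the whole range, was 0.835 for Fos and 0.859 for Nr4a1 among the male libraries and 0.871 for Fosb among the α7G libraries, and in each the male α7G control library was the one apart. For Zfp36 it was 0.831 among the female libraries, with the female α7G CS library apart.

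The step from control to CS differed in sign between the sexes for 5 members. The difference in log2 fold change, female minus male, was 1.30 for Fos, 0.68 for Jun, 1.43 for Egr1, 1.53 for Atf3 and 0.72 for Zfp36, and none passed edgeR's test of the difference (adjusted p = 0.974 to 0.995). It differed in sign between the genotypes for Fosb, by 1.80, and for Nr4a1, by 0.63, α7E260A:G minus α7G, which did not pass either (edgeR adjusted p = 1.00 and 0.997). The causes were not tested.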

How the results depend on the processing

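The number of members called was 0 in every comparison by the main edgeR fit, and alternatives changed it for 1 comparison. For genotype it was 1 (Junb) with DESeq2. It was also 1 (Junb, edgeR adjusted p = 0.0166) in the edgeR fit with the replicate block and CDS length offset together. With the replicate block alone it was 0 for each CS and genotype comparison. Libraries of the same sex deviated from their group means with r = -0.09 to 0.84 between groups, above 0.1 for 4 of 6 pairs of groups. The main fit of CS and genotype had no term for sex, although each group holds both sexes. For genotype, the block raised the genes called by edgeR from 6 to 40. It raised the members with an unadjusted p under 0.05 by edgeR from 1 to 3 of the 8 tested. Leaving out each library gave 0 members called each time in all 7 comparisons.

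Leaving out 1 library turned the sign of some estimates. For CS in α7G the estimates ran from -0.90 to 0.73 for Fos, -0.96 to 0.69 for Egr1, -0.055 to 0.82 for Ier2, -0.71 to 0.32 for Dusp1, -0.87 to 0.22 for Nr4a1 and -0.57 to 0.72 for Zfp36. For CS in α7E260A:G they ran from -0.31 to 0.23 for Fos, -0.26 to 0.52 for Jun, -0.0019 to 0.18 for Junb, -0.30 to 0.94996 for Egr1, -0.17 to 0.68 for Nr4a1 and -0.26 to 0.016 for Zfp36. For genotype they ran from -0.79 to 0.054 for Fos, -0.88 to 0.051 for Egr1, -0.47 to 0.072 for Dusp1, -0.58 to 0.0094 for Nr4a1 and -0.66 to 0.013 for Zfp36. For the difference between genotypes of the CS response they ran from -0.81 to 0.83 for Fos, -0.53 to 0.23 for Jun, -0.91 to 0.043 for Junb, -0.51 to 1.31 for Egr1, -0.65 to 0.23 for Ier2, -0.52 to 0.52 for Dusp1, -0.038 to 1.102 for Nr4a1 and -0.86 to 0.43 for Zfp36. They ran from -0.41 to 0.040 for Dusp1 for female against male, and from -0.055 to 0.75 for Junb for the difference between sexes. For genotype each turned sign came without the male α7G control library, and for the other comparisons other libraries turned signs too. Leaving out a library leaves its group with a single sex, and the CS and genotype fits had no term for sex.

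Scaling, the length offset and the block also turned signs. For CS in α7G Ier2 had -0.20 with the length offset and -0.077 with it and the block, and Zfp36 0.0036 with the block. For CS in α7E260A:G Jun had -0.044 with the offset. For the difference between genotypes Ier2 had 0.060 with library size scaling, 0.22 with the offset and 0.17 with offset and block, and Zfp36 0.14, 0.13 and 0.021.

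The genes tested that were called for genotype numbered 6, but 422 with DESeq2, 13 with filterByExpr, 69 with no filter, 476 with the length offset, 40 with the block, 672 with both, and 1 to 274 with 1 library left out (most without the female α7E260A:G control). For CS in α7G they numbered 0, but 1154 with only that genotype's 4 libraries, 28 with DESeq2.

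With TMM scaling or the CDS length trend removed, the summed level of the male α7G CS library was 1990 or 1834 RPM and of the female 2052 or 1909 RPM. Members lower after CS in both α7G pairs and higher in both α7E260A:G pairs numbered 1 under either (Fosb). With the length trend removed, 0 members were higher after CS in 4 pairs, and 1 (Junb) was above all α7E260A:G libraries in both α7G CS libraries. The causes were not tested. Each group has 2 libraries, which limits the precision of every comparison.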
